A study of Mus musculus with 7 samples.

Results

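HNF4a-bound regions at annotated gene promoters in mouse liver were described here. They are the rows of the authors' HNF4a region table whose annotation places them at a promoter or transcription start site, apart from those whose gene name begins with Mir. The rule kept 5160 of 39704 regions (13%) and set aside 75 promoter regions of microRNA genes. Chromatin immunoprecipitation with sequencing (ChIP-seq) had been done on liver with antibody ab41898, in 3 wild-type (WT) mice and 3 mice that carry AMPK-CA, a constitutively active form of the AMP-activated protein kinase AMPK. All 6 animals had eaten a doxycycline-containing high fat diet for 14 days, and each of 3 labelled batches held 1 library per genotype. The element that drives the AMPK-CA allele, and the strain, sex and age of the mice, are not stated in the labels, and the pooled input library was not analysed here. Because whole liver was used, a change in the share of bound cells and a change in occupancy per cell cannot be told apart.

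HNF4a is a nuclear receptor that binds DNA as a homodimer and is among the factors that define hepatocytes, the main cell type of the liver. It binds direct repeats of a hexamer spaced by a single base, and its binding elements at promoters and enhancers serve genes for plasma proteins, lipoproteins, bile acid handling, drug metabolism and glucose output. AMPK is the energy-sensing kinase that is activated when ATP is low and turns down biosynthetic pathways.

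The sequences below show promoters of regions with the strongest HNF4a signal per length among those that match a RefSeq window, which leaves out Gys2, followed by those of the pair of regions that passed a genotype test. Each is the 300-base RefSeq window of build GRCm38.p6 that runs from 250 bases before to 50 bases after the start of the gene, written 5′ to 3′ on the strand of the gene. Capitals mark matches to the HNF4-type motif CAAAGNNCA (reverse complement TGNNCTTTG) and to the TATA box TATAAA. The Sepp1 window is listed by RefSeq under the symbol Selenop.
Rdh7, chr10:127888684-127888983, minus strand: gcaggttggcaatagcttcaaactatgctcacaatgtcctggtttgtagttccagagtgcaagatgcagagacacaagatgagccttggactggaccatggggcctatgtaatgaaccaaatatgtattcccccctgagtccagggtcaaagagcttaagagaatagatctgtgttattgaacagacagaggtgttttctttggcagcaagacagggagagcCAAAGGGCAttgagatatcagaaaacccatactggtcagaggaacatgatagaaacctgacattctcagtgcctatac
Sepp1, chr15:3270727-3271026, plus strand: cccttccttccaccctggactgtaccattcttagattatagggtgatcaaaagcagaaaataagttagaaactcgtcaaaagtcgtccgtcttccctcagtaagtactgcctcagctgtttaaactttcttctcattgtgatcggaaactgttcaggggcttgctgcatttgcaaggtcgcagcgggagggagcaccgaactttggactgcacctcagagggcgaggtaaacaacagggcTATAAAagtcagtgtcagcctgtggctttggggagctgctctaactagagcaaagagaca
G6pc, chr11:101367466-101367765, plus strand: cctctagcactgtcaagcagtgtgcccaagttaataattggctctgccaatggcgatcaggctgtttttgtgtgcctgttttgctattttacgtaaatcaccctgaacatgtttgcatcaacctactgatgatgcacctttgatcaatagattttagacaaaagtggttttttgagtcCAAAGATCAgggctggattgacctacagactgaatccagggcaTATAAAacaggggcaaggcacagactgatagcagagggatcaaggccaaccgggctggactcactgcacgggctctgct
C8g, chr2:25500457-25500756, minus strand: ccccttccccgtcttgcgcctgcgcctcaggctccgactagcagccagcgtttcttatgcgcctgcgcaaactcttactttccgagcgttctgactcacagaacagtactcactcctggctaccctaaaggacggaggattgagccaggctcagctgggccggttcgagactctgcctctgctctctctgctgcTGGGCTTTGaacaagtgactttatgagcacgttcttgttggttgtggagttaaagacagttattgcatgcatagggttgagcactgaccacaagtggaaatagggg
Nr1i3, chr1:171213720-171214019, plus strand: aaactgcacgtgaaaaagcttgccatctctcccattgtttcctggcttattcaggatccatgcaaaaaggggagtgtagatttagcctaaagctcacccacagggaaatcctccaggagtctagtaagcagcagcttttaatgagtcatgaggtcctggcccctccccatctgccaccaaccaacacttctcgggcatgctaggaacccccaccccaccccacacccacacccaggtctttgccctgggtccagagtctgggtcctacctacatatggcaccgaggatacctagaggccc
Alb, chr5:90460620-90460919, plus strand: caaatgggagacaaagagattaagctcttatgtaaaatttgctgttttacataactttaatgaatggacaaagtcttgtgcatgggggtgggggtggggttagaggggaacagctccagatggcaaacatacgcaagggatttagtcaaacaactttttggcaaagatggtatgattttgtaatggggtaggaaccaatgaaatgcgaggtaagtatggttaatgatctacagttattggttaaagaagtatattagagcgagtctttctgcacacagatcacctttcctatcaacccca
The Rdh7 window holds CAAAGGGCA, which begins 28 bases before the start, and the G6pc window holds CAAAGATCA 72 bases before the start with TATAAA at 29 bases. The C8g window holds TGGGCTTTG, a match on the opposite strand, 56 bases before the start. The Sepp1 window holds TATAAA 10 bases before the start and no match to the HNF4-type motif. Neither motif was found in the windows of Nr1i3 and Alb, which says only that these letters are not in the windows.

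The promoter regions carried 4948 gene names, of which 4742 had 1 region, 200 had 2 and 6 had 3. The gene name in the table comes with a distance to a start site, which need not be the start that the annotation refers to. In 793 regions the annotation named another gene. In 12 regions a number stands where the gene name belongs, and these are not named here. Relative to the start site of the deposited distance, the median position was -58 bp, with quartiles at -278 and 57 bp. In all, 2148 regions (41.6%) lay within 100 bp of the start, 4188 (81.2%) within 500 bp and 4909 (95.1%) within 1000 bp, while 114 were listed more than 10000 bp from it. The regions were chosen by a promoter annotation whose window around the start is not stated in the sources used here. Their spread around the start therefore follows at least in part from that choice and is not a measure of where HNF4a binds. Upstream positions were the more common, with 3155 of the 5160 regions. The count fell off sharply past 100 bp downstream: 1240 regions lay from 0 to 100 bp and 303 from 101 to 249 bp.

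**Figure D1:**
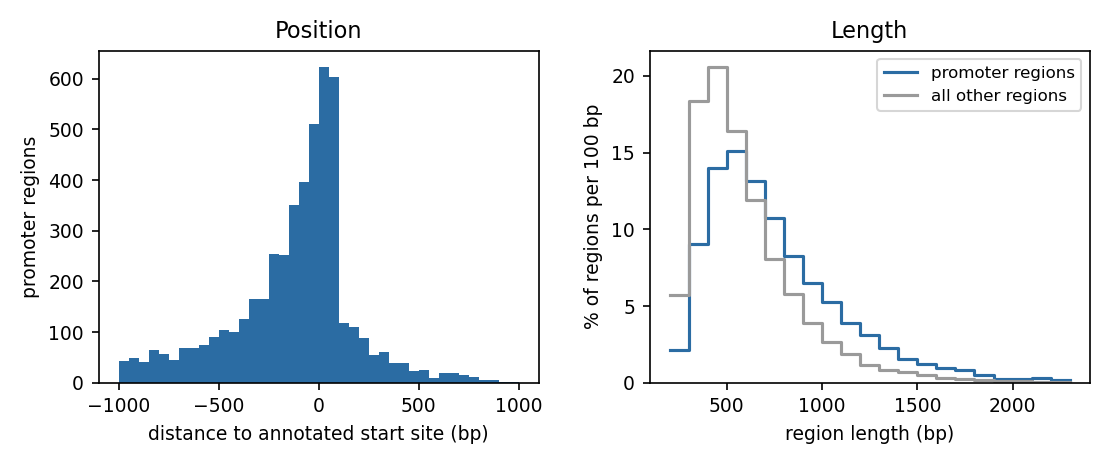
Left, number of promoter regions per 50 bp by signed distance to the annotated start site in bp, negative values upstream, for the 4909 regions within 1000 bp. Right, percentage of regions per 100 bp of region length, for promoter regions and all other regions; the promoter curve is shifted to longer regions, with a median of 671 bp against 530 bp.

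Promoter regions were longer than the rest but not more densely covered. Their median length was 671 bp, from 206 to 3737 bp, against 530 bp over the other 34544 regions. The normalized read number per region, averaged over the 6 libraries, had a median of 18.9 at promoters and 17.2 elsewhere. Per kb of region the order turned, with 28.8 at promoters and 34.3 elsewhere. Exon regions, at 27.1 per kb, lay nearest to promoters, and intergenic regions were at 36.2. Length and reads per region were correlated across promoter regions (Pearson r = 0.75, n = 5160), as they share the same interval. The longest promoter regions were those of Tymp, which encodes thymidine phosphorylase (3737 bp), Lrp1, an endocytic lipoprotein receptor (2887 bp), and Ppara, the fatty acid-sensing nuclear receptor (2747 bp). Genes with 3 promoter regions were Stat5a, Sqrdl, Pafah2, St6gal1, Lppos and Rtkn. Some of these regions lie far from the listed start. A Stat5a region is annotated to Stat5b, at -8355 bp, and an Lppos region to Lpp, at -54003 bp. A St6gal1 region is listed at 65685 bp, Sqrdl regions at -6326 and 9992 bp, and a Pafah2 region at 6142 bp.

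Before the genotypes are compared, a library that stands apart has to be described. The libraries held 536027 to 1622087 reads in the 39704 regions. In WT replicate 1 the promoter regions took 19.0% of these reads, against 11.8% in WT replicate 2 and 13.1% in WT replicate 3. The AMPK-CA libraries had 13.9%, 11.5% and 12.4%. The median promoter region stood at 30.7 normalized reads in WT replicate 1 and at 15.0 and 18 in the other WT libraries, and at 19.3, 14.6 and 16.7 in the AMPK-CA libraries. At all other regions the 6 medians stayed between 16.9 and 18.1. WT replicate 1 thus lay above the 5 other libraries at promoters and not over the other regions as a whole. Across promoter regions it correlated with AMPK-CA replicate 1 of its own batch (Pearson r = 0.81 on the log2 scale) more closely than with WT replicate 2 (r = 0.58) or 3 (r = 0.62). The number ahead of the animal code differs between the table's column names and the sample titles for 4 of the 6 libraries, so columns were matched by animal code.

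**Figure D2:**
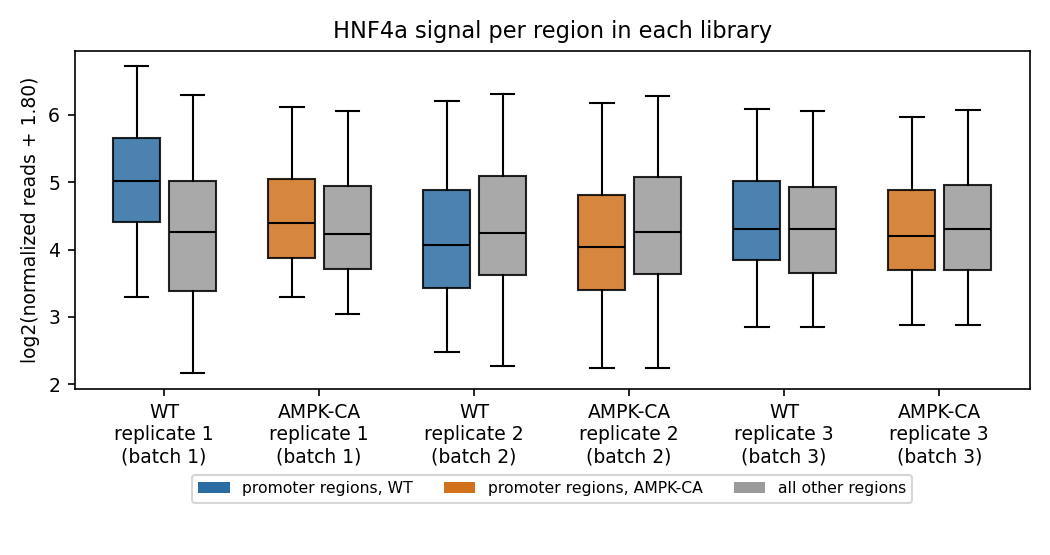
Box plots of log2(normalized reads + 1.80) per region in each of the 6 libraries, coloured for promoter regions by genotype and grey for all other regions; boxes give the quartiles with the median, and whiskers the 5th and 95th percentiles. Promoter regions of WT replicate 1 stand above every other box, with a median of 30.7 normalized reads, while the grey boxes have medians from 16.9 to 18.1.

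The 10 strongest promoter regions per kb included genes of retinol, selenium, glycogen, glucose and homocysteine handling. Rdh7, a retinol dehydrogenase, was highest, with 202 normalized reads per kb over a region at chr10:127888542-127889230. Its normalized reads were 87.4, 172 and 117 in the WT libraries and 109, 173 and 178 in the AMPK-CA libraries, so the groups overlapped. Sepp1, which encodes the selenium carrier selenoprotein P, followed at 186 per kb. Its WT libraries had 70.7, 138 and 98.9 normalized reads and its AMPK-CA libraries 83.7, 117 and 100. Gys2, the liver glycogen synthase, had 184 per kb and the most even values of these, with 168, 171 and 174 in WT and 171, 197 and 183 in AMPK-CA. G6pc, the catalytic subunit of glucose-6-phosphatase, stood at 139 per kb, with 97.4, 194 and 180 in WT and 111, 185 and 151 in AMPK-CA. The region listed for C8g, a chain of complement C8, is annotated as the promoter of the neighbouring Fbxw5 and had 137 per kb. Cideb, a lipid droplet protein, Igfbp1, a secreted binding protein for insulin-like growth factors, and Anks4b each had 136 per kb. Bhmt, which methylates homocysteine, had 133 and the phospholipid scramblase Plscr3 had 131. Igfbp1 had 81.4, 91.4 and 108 normalized reads in WT and 78.9, 74.7 and 79.2 in AMPK-CA, and it passed no test.

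The motif share followed the strength of the signal. A RefSeq promoter window overlapped 3720 of the 5160 regions, with the same symbol in 3505. The HNF4-type motif was in 6.88% of these windows and in 6.36% of all 32851 RefSeq windows, searched on both strands. Its more specific form CAAAGTCCA, which is contained in the first, was in 0.887% against 0.475%. Ordered by normalized reads per kb, the share with the HNF4-type motif was 3.09% in the weakest quintile of 744 regions, then 3.23%, 4.84% and 6.72%, and 16.5% in the strongest. The hexamer half-site AGGTCA was less frequent in the bound windows, in 12.8% against 16.3% of all. Of the general promoter elements, GGGCGG, the GC box, was in 70.3% of the bound windows and 35.7% of all, and TATAAA in 6.21% and 13.6%. CCAAT was near even, in 36.7% and 37.4%. Other elements moved with signal as well. In the weakest and the strongest signal quintile AGGTCA was in 9.95% and 21.4%, TATAAA in 6.05% and 9.95%, and GGGCGG in 74.3% and 56.2%. The median G+C share in these quintiles was 65.7% and 59.3%. Over all bound windows it was 63.7%, against 52.7% of all RefSeq windows, and motif shares move with base composition. Within the quintile of bound windows lowest in G+C, at 56% or less, the HNF4-type motif was in 28.8% of the 274 windows from the strongest signal quintile and in 11% of the other 472, beside 7.97% of all windows in that range. In the next 3 quintiles the strongest-signal windows had 9.52%, 14.9% and 9.38%, against 5.93%, 3.47% and 1.88% of the others. In the quintile highest in G+C the shares were close, at 2.17% of 92 windows and 1.73% of 637.

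**Figure D3:**
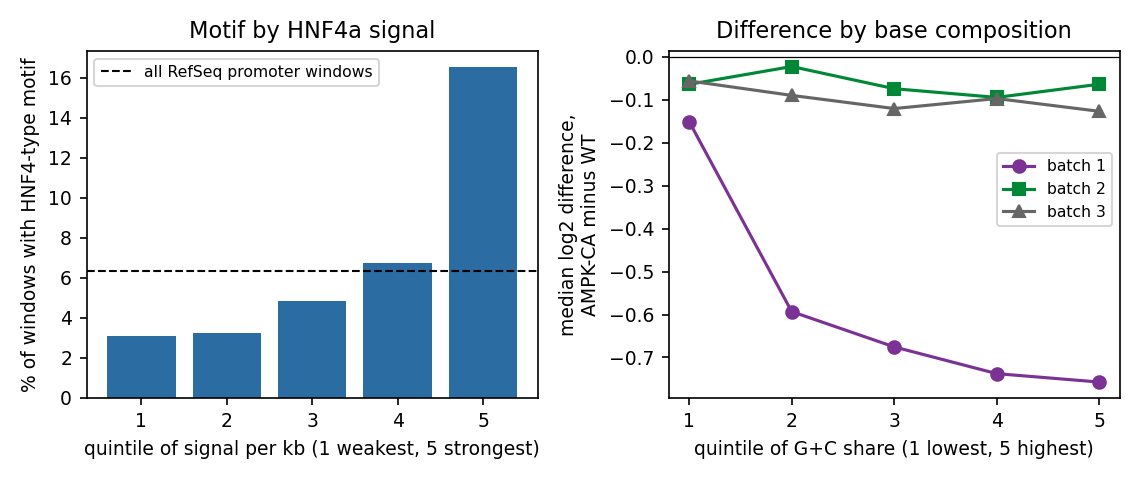
Left, percentage of promoter windows with the HNF4-type motif in each quintile of normalized reads per kb, with the share in all RefSeq windows as a dashed line at 6.36%; the strongest quintile reaches 16.5%. Right, median log2 difference AMPK-CA minus WT within each batch over quintiles of G+C share; batch 1 runs from -0.15 to -0.76 while batches 2 and 3 stay between -0.02 and -0.13.

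The genotype comparison asked whether HNF4a signal at promoters differed between AMPK-CA and WT liver. At promoters the signal was lower in AMPK-CA in batch 1 by a wide margin and close to even in batches 2 and 3. Differences are given as AMPK-CA minus WT of log2(normalized reads + 1.80), a scale that understates changes at weak regions. The median over the 5160 promoter regions was -0.23, against 0.05 over all other regions. Within batches the promoter medians were -0.60, -0.06 and -0.09, beside 0.08, -0.01 and 0.01 at the other regions. In batch 1, 85% of promoter regions were lower in AMPK-CA, in batch 2 54.1% and in batch 3 55.1%, against 46.6%, 50.7% and 49.1% elsewhere. Leaving out WT replicate 1 took the promoter median to -0.00025, leaving out WT replicate 2 to -0.42 and leaving out AMPK-CA replicate 2 to -0.15.

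**Figure D4:**
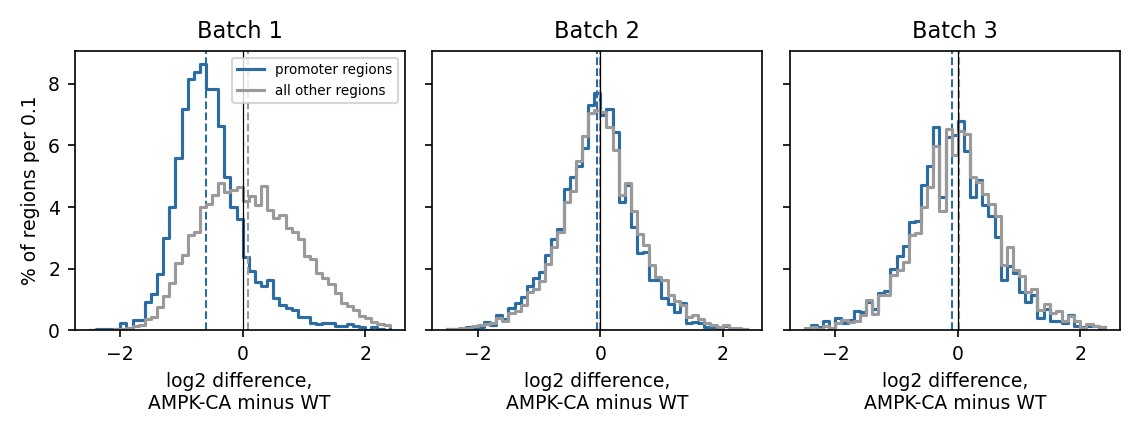
Distribution over regions of the log2 difference AMPK-CA minus WT within each batch, as percentage of regions per 0.1, for promoter regions and all other regions; dashed lines are medians. The promoter curve is displaced in batch 1 (median -0.60) and is close to that of the other regions in batches 2 and 3 (medians -0.06 and -0.09, against -0.01 and 0.01).

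The share of reads in promoter regions gave the same picture. It was 14.6% ± 3.83 (SD, n = 3) in WT and 12.6% ± 1.20 (SD, n = 3) in AMPK-CA, a difference of -2.05 percentage points that is smaller than the spread among the WT libraries. By batch the differences were -5.13, -0.312 and -0.711 points. Without WT replicate 1 the difference was 0.131 points and without WT replicate 2 it was -3.46 points. At the median promoter region the recovered reads numbered 46 in WT replicate 1 (95% Poisson interval 33.7 to 61.4) and 10 in WT replicate 3 (4.80 to 18.4). Such intervals cover counting error only.

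In batch 1 the difference moved with base composition. From the lowest to the highest quintile of G+C share, the batch 1 medians were -0.15, -0.59, -0.68, -0.74 and -0.76. In WT replicate 1 the median promoter region went from 24.0 normalized reads in the lowest quintile to 36.7 in the highest, while in WT replicate 2 it went from 21.0 to 15.7. Across the 3720 regions with a window, the correlation of G+C share with the difference was r = -0.46 in batch 1 and -0.03 in each of batches 2 and 3. Regions share their libraries in these values. Regions of other annotation classes that overlap a RefSeq promoter window, 3035 in number, had a batch 1 median of -0.64, and exon regions one of -0.57, whereas the 31509 non-promoter regions away from such windows had 0.17. The part of base composition in the batch 1 difference was not tested.

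Few single promoter regions differed between genotypes. In limma without a batch term, no region of the table passed an adjusted p of 0.05 (0% of 39704), and the smallest adjusted p at a promoter was 1.00. Without a block, edgeR and DESeq2 on the recovered reads also called no promoter region. At an unadjusted p under 0.05, edgeR had 115 promoter regions lower (2.23%, against 0.965% of all regions) and 7 higher (0.136%, against 1.13%). DESeq2 had 93 lower (1.80%, against 0.773%) and 5 higher (0.0969%, against 0.735%). In limma without a block, 111 promoter regions (2.15%) were lower in AMPK-CA at an unadjusted p under 0.05, beside 0.995% of all regions. In the same fit 10 (0.194%) were higher, beside 1.46%. The labels put 1 WT and 1 AMPK-CA library in each batch. In limma with batch as a block 0.0579% of all regions passed the adjusted threshold, 2 of them at promoters. At an unadjusted p, the blocked fit had 360 promoter regions lower (6.98%, against 3.16% of all regions) and 49 higher (0.950%, against 4.11%). Without batch 1 these shares came to 3.45% lower, beside 3.24% of all regions, and 1.74% higher, beside 3.60%. Thus the excess of lower promoter regions was small outside batch 1. Signs told the same: 1311 promoter regions (25.4%) were lower in all 3 batches, against 14.6% of all regions, and 178 (3.45%) were higher in all 3, against 13.5%. In batches 2 and 3 alone, 30.0% were lower in both, against 26.6%, and 20.8% higher in both, against 25.5%. Across promoter regions the within-batch differences were almost unrelated, with r of 0.04, 0.04 and 0.02 for the 3 pairs of batches.

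Nr1i3 encodes CAR, the xenobiotic-sensing nuclear receptor of hepatocytes, and its promoter region was the one called lower in AMPK-CA. The region at chr1:171213647-171214430 had 157, 103 and 102 normalized reads in WT and 49.9, 62.1 and 34.7 in AMPK-CA. All 3 AMPK-CA libraries lay below all 3 WT libraries, in the same values from which the region was called. The log2 difference was -1.28 (SE 0.25 with the block), with a blocked limma adjusted p of 1.20e-03. The adjusted p was 0.0285 in the blocked limma fit without batch 1, 0.00231 in blocked edgeR and 0.51 in blocked DESeq2. A second Nr1i3 promoter region, at a deposited distance of -868 bp, was weaker, with 8, 19.5 and 8.99 normalized reads in WT and 14.5, 21.3 and 12.5 in AMPK-CA, and was higher in AMPK-CA within each batch without passing the test.

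Alb encodes albumin, the main plasma protein, and its promoter region was the one called higher in AMPK-CA. The region at chr5:90460441-90460952 had 6.67, 25.5 and 19.8 normalized reads in WT and 33.8, 83.4 and 61.1 in AMPK-CA. The groups did not overlap in these values, from which the region was called, and the lowest value was that of WT replicate 1. The log2 difference was 1.75 (SE 0.34 with the block), with a blocked limma adjusted p of 1.20e-03. Without batch 1 the difference was 1.59, with a blocked limma adjusted p of 0.00189, and the adjusted p was 0.000864 in blocked edgeR and 0.334 in blocked DESeq2. Both calls stood without the batch that holds WT replicate 1, and neither stood in a fit without the block, in DESeq2 or in blocked limma without the mean-variance trend. Without batch 2 the blocked limma adjusted p was 0.0821 for Nr1i3 and 0.337 for Alb, and without batch 3 it was 0.304 and 0.0964.

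Blocked edgeR on the recovered reads called 4 promoter regions (0.0775%), a share close to the 0.0604% of all regions. They were Alb and Nr1i3 and a further pair that are named here after their values were seen. Bcs1l, an assembly factor of respiratory complex III, had 33.4, 16.5 and 18 normalized reads in WT and 7.24, 0 and 8.33 in AMPK-CA, with an edgeR adjusted p of 0.048. Cyp2a4, a steroid-hydroxylating cytochrome P450, had 9.34, 0.749 and 8.99 in WT and 38.6, 23.3 and 13.9 in AMPK-CA, with an edgeR adjusted p of 0.0343. The groups did not overlap at either region, which adds no support, since the same values gave the calls. In blocked limma their adjusted p was 0.051 and 0.0591. Cyp2a4 has close paralogs, and the labels do not say how reads shared among them were placed.

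Among promoter regions with equal signs in all 3 batches and a mean signal at or above the promoter median, the next by blocked p did not pass the adjusted threshold. Those lower in AMPK-CA in each batch were Tcf12, a basic helix-loop-helix factor, Pqlc1, Klhl36, Stradb and Per2, with blocked limma adjusted p from 0.197 to 0.31. Tcf12 had 38.7, 23.2 and 37.8 normalized reads in WT and 16.1, 11.6 and 6.95 in AMPK-CA. Per2, a repressor of the circadian clock, had 40.7, 22.5 and 34.2 in WT and 21.7, 6.79 and 11.1 in AMPK-CA. At Tcf12 and Per2 the groups did not overlap, whereas at Pqlc1, Klhl36 and Stradb they did. All were chosen by p from these same values, so groups that do not overlap add no support. Stradb encodes a partner of LKB1, the kinase upstream of AMPK, and its region is annotated to the neighbouring Trak2. It had 149, 53.9 and 79.1 in WT and 66.0, 45.6 and 33.3 in AMPK-CA.

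Those higher in each batch were BC029722, Cyp2c29, Sirt5, Cyp2c70 and Mme, with blocked limma adjusted p from 0.352 to 0.55. Cyp2c29 and Cyp2c70 are cytochrome P450 genes, and in the mouse Cyp2c70 makes muricholic bile acids. Cyp2c70 had 11.3, 56.2 and 44.9 normalized reads in WT and 40.2, 74.7 and 54.2 in AMPK-CA. Cyp2c29 had 6, 33.7 and 12.6 in WT and 26.6, 40.8 and 26.4 in AMPK-CA. At both genes WT replicate 1 was the lowest library and the other libraries overlapped. Sirt5 encodes a mitochondrial deacylase and Mme the protease neprilysin, and at both the groups overlapped. Of these 5, BC029722 alone had groups that did not overlap, with 20.7, 18 and 1.80 in WT and 32.2, 25.2 and 23.6 in AMPK-CA. It too was chosen by p from these same values.

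**Figure D5:**
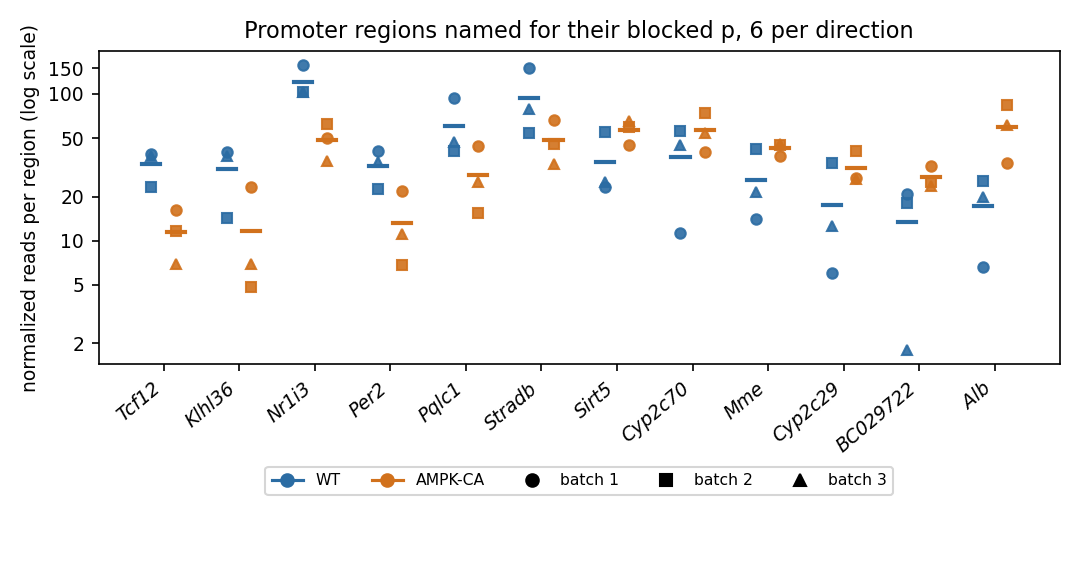
Normalized reads per region on a log scale in each library at 12 promoter regions, the 6 in each direction with the smallest blocked p among those with equal signs in all 3 batches and a mean at or above the promoter median; colours give the genotype, symbols the batch and bars the group mean. Nr1i3 and Alb, the 2 that passed the adjusted threshold with the block, have groups that do not overlap, as have Tcf12, Per2 and BC029722. All 12 were chosen by p from these same values.

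By role, lists of hepatocyte genes differed in the balance of signs, and apart from Nr1i3 and Alb no member of any list passed the adjusted threshold. Lists were taken by the deposited gene name, so some of their regions are annotated as promoters of another gene. The Fbp1 region of the gluconeogenesis list is listed at -76666 bp and annotated to 2010111I01Rik. The Apoh region of the lipoprotein list is listed at 29840 bp and annotated to Cep112. Over all promoter regions 1338 differences were positive and 3822 negative, with the median of -0.23 given above. Among hepatocyte transcription factors, 21 of 30 genes had a promoter region, and 22 of their 24 regions were lower in AMPK-CA, with a median of -0.23 and within-batch medians of -0.49, -0.22 and -0.20. Without WT replicate 1 the median was -0.12 and without WT replicate 2 it was -0.51. Beside Nr1i3, the smallest blocked p of this list belonged to Rxra, the shared dimer partner of many nuclear receptors. Rxra had 88.1, 78.6 and 64.7 normalized reads in WT and 55.5, 58.2 and 27.8 in AMPK-CA. Its blocked limma adjusted p was 0.471. The promoter region of Hnf4a itself was weak, with 23.3, 7.49 and 18 in WT and 16.9, 5.82 and 22.2 in AMPK-CA.

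Cholesterol synthesis genes had 10 promoter regions, all lower in AMPK-CA, with a median of -0.38 and within-batch medians of -0.76, -0.18 and -0.18. Without WT replicate 1 the median was -0.01 and without WT replicate 2 it was -0.59. Hsd17b7, a sterol-reducing enzyme with the strongest promoter region of the list, had 74.7, 32.2 and 57.5 normalized reads in WT and 43.5, 49.5 and 40.3 in AMPK-CA. Fatty acid and triglyceride synthesis genes had 11 regions, 9 of them lower, with a median of -0.13. Their strongest per kb were Elovl6, a fatty acid elongase, at 43.9 normalized reads per kb, and Dgat1, which makes triglyceride, at 40.2. Fatty acid oxidation and ketogenesis genes had 13 regions, 8 lower, with a median of -0.05, led by Bdh1 and Ehhadh at 68.3 and 56.0 normalized reads per kb.

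Bile acid genes went the other way from the promoter median, with 12 of 16 regions higher and a median of 0.12, but the within-batch medians were 0.50, -0.10 and 0.18, and the median was -0.05 without WT replicate 1 and 0.48 without WT replicate 2. Abcb11, the bile salt export pump, was their strongest, with 44.7, 75.6 and 43.1 normalized reads in WT and 66.8, 87.3 and 80.6 in AMPK-CA. The groups overlapped and the blocked limma adjusted p was 0.664. Slc27a5, a bile acid ligase, followed at 75.5 normalized reads per kb. Cyp7a1, the rate-limiting enzyme of bile acid synthesis, had 14.0, 41.9 and 21.6 in WT and 20.9, 41.7 and 23.6 in AMPK-CA, which differ by less than the spread within a genotype.

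Lists of secreted-protein, drug metabolism, gluconeogenesis and amino acid catabolism genes were near even. Plasma protein and acute phase genes had 20 promoter regions, 12 higher and 8 lower, with a median of 0.06. Besides Alb, Itih3, a hyaluronan-binding inter-alpha-trypsin inhibitor chain, was strongest at 101 normalized reads per kb, and it had 93.4, 67.4 and 55.7 in WT and 70.0, 72.8 and 69.5 in AMPK-CA. Coagulation and complement genes had 28 regions, 13 higher and 15 lower (median -0.04), led by C8g and by Proc, which encodes protein C, at 106 per kb. Lipoprotein genes had 18, 8 higher and 10 lower (median -0.03), and Apoa2 (104 per kb) and Apoc3 (81.0 per kb) led them. Drug metabolism genes had 23, 11 higher and 12 lower (median -0.00), with Cyp2d26 at 126 and Cyp2d10 at 101 per kb. Gluconeogenesis and glycogen genes had 17, 10 higher and 7 lower (median 0.01), and urea cycle and amino acid catabolism genes 22, 10 higher and 12 lower (median -0.08), where Cth followed Bhmt at 76.1 per kb. Scaled by total reads, the medians of the coagulation, lipoprotein and drug metabolism lists turned to 0.02, 0.02 and 0.05, and without WT replicate 1 that of the plasma protein list turned to -0.04. Over the fits that left out 1 library, the medians of these lists stayed between -0.21 and 0.24.

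Lists of ribosomal, respiratory chain, housekeeping, cell cycle, and AMPK and mTOR genes were mostly lower in AMPK-CA, like promoters at large. Genes whose names begin with Rpl or Rps, most of them ribosomal protein genes but among them the kinase genes Rps6ka1, Rps6kb2 and Rps6kl1 and the pseudogene Rpl34-ps1, had 37 regions, 27 of them lower, with a median of -0.21, led by Rps27rt and Rpl10a at 38.3 and 37.9 normalized reads per kb. Mitochondrial ribosomal protein genes, taken by the prefixes Mrpl and Mrps, had 17 of 25 lower (median -0.14), led by Mrpl34 and Mrps33, and respiratory chain genes, also taken by prefix and with assembly factors among them, 25 of 35 lower (median -0.24), led by Ndufa2 and the assembly factor Ndufaf4. Housekeeping genes had 6 of 8 lower (median -0.12), led by Pgk1 and Gapdh, and cell cycle genes 6 of 9 lower (median -0.18), led by Mcm7 and Cdk6. AMPK and mTOR genes had 5 of 8 lower, with a median of -0.16. Their strongest were Mtor at 36.5 per kb and Prkag2, an AMPK subunit, at 27.9. The regions listed here for Rps27rt, Ndufa2, Mcm7 and Prkag2 are annotated as promoters of Rab13, Ik, Ap4m1 and 2900005J15Rik. Further regions counted in these lists are annotated to another gene too, such as that of Ndufb9 to Tatdn1 and that of Atp5c1 to Kin. The medians of the lists for Rpl and Rps, respiratory chain, cell cycle and AMPK genes were lowest in batch 1, at -0.41, -0.55, -0.68 and -0.55. Without WT replicate 1 they were -0.02, -0.10, 0.26 and -0.02, and that of the housekeeping list was 0.07. Without WT replicate 2 the same 5 medians were -0.51, -0.42, -0.37, -0.54 and -0.25. In the blocked fit without batch 1, the median of the AMPK and mTOR list was 0.14.

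Markers of liver cell types were checked at their promoters. Of 8 hepatocyte markers 6 had a promoter region and all 8 had a region somewhere in the table. Of 6 cholangiocyte markers 4 had a region somewhere in the table and 1, Sox9, had a promoter region. Of the 6 macrophage, 7 stellate and 6 endothelial markers none had a promoter region, although 1, 2 and 5 of them had a region elsewhere.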

How the data were processed

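The authors deposited 1 table of regions with a value per library. Per the file headers the columns are named for alignment files, and the values are a signal: each deposited column holds whole multiples of 1 value (100% of values, tolerance 1e-09), so reads per region divided by a library factor. No source used here states the region selection or the factor. The submitters' processing notes name BWA, SAMtools and Picard, deepTools and HOMER, SICER and MACS2, and FastQC and Trim Galore without roles, and the builds mm10 and GRCm38. The labels' protocols name both a PrepX and an NEB library kit without assigning them to libraries.

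The 8 blank rows were dropped. limma 3.58.1 (R 4.3.3; trend, robust) was fitted to log2(value + 1.80), the pseudocount being 0.1 of the median non-zero value of 18, on all 39704 regions, with Benjamini-Hochberg adjustment. Recovered reads went into edgeR 4.0.16 (quasi-likelihood) and DESeq2 1.42.0. Fits were tested on simulated data. Scripts used Python 3.11.15. Promoter windows come from RefSeq, GRCm38.p6.

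Replicate numbers are the labelled batches, which pair the libraries. Deviations from the genotype means correlated within batches at 0.53, 0.49 and 0.05. All 15 pairs of libraries differed by more than sampling noise (chi-square per degree of freedom of 1.55 or more). Whether each library is a separate animal rests on the animal codes in the titles.

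Named were the 10 strongest promoter regions per kb, those called in limma with or without the block, the 6 smallest blocked p per direction with 3 equal signs and a mean at or above the promoter median, the 2 strongest genes of each list, the 3 longest regions and the genes with most regions. Beyond these, regions are named to illustrate a list, and 2 genes that the rule or a list would name are not reported here. The members and lists were chosen with earlier results of these data known.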

Additional observations from a re-analysis of the deposited data

How the results depend on the processing

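No promoter region was called in the fit without a block. The paired fit with the replicate block called 2, blocked edgeR 4, the replicate block without batch 1 2 and without batch 3 1; the blocked fit without batch 2, the blocked fit without the trend, and DESeq2 with the block called 0. The region called without batch 3 was neither Nr1i3 nor Alb. Leaving out 1 library without a block gave 0 to 1, the call being Cyp2a4 without WT replicate 1. The cause was not tested. The pseudocounts, the low-value filter, scaling by total reads, and both promoter definitions kept 0 calls. The promoter median difference ranged from -0.42 to -0.00025 over left-out libraries and from -0.37 to -0.14 over pseudocounts, filter, scalings and tools, and the difference in share from -3.46 to 0.131 points over left-out libraries. Of the 12 regions named for their blocked p, none changed direction under these settings. Each had been chosen for equal signs in all 3 batches, so a limma fit with the block could not reverse it. Depth limits the weak regions: the median promoter region of WT replicate 3 rests on 10 reads.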
